A study of Mus musculus with 4 samples.

Results

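Interferon-stimulated genes are the genes that cells switch on when type I interferon binds its receptor. The set described here held 45 mouse genes chosen by name. They were sensors of foreign RNA and DNA, the 2'-5' oligoadenylate synthetase family, transcription factors of the pathway and enzymes of ISG15, ubiquitin and ADP-ribose transfer. The others were antiviral effector proteins, membrane proteins, proteins of the Ifi200 family and a remainder of mixed function. All 45 matched a gene symbol of the array's annotation, through 76 probe sets that name 1 of these genes alone. Each gene was read from the probe set whose mean log2 value over the 4 arrays was highest, and the further probe sets of the 19 genes with more than 1 served as a check. A gene was kept when its highest array reached an intensity of 157, the median of all values. This level filter kept 42 of the 45 genes, against 12239 of 18193 genes on the whole array.

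The study asked how the ubiquitin ligase subunit Fbw7 controls the quiescence of hematopoietic stem cells, and it measured gene expression on 4 Affymetrix arrays, 1 per group. The groups were LSK cells and MP cells sorted from the bone marrow of wild-type and of Fbw7-deficient mice. LSK cells lack lineage markers and carry Kit and Sca1, a gate that holds the hematopoietic stem cells, and MP cells are myeloid progenitors with Kit but without Sca1. Each genotype was 1 pool of marrow from 3 mice, from which both its populations were sorted. Mice of both genotypes, the wild-type controls included, had received polyI:C in 3 injections of 20 ug per g, and their marrow was taken 2 weeks later. PolyI:C is a synthetic double-stranded RNA that makes animals produce type I interferon. No group without polyI:C was measured, so the values are levels after the agent and not the size of a response to it. The sources used here do not give the Fbw7 allele, the means of its deletion, or the strain and age of the mice. Where 4 intensities are listed, the wild-type value comes before the Fbw7-deficient one in each population.

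Type I interferon is released by cells that sense viral nucleic acid, through the cytoplasmic helicases Ddx58 (RIG-I) and Ifih1 (MDA5) and through Toll-like receptors. It binds the receptor made of Ifnar1 and Ifnar2, whose kinases Jak1 and Tyk2 activate a complex of Stat proteins with Irf9, and this complex binds a DNA motif called the interferon-stimulated response element (ISRE) in the promoters of its targets. In the marrow, interferon is known to bring quiescent hematopoietic stem cells into cycle, and Sca1, the surface protein that separates the LSK and MP gates, is itself encoded by an interferon-induced gene.

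With 1 array per group there was no replicate, so no error, test or p-value could be computed, and a difference between 2 arrays is not known to exceed the spread between animals. A gene was called higher or lower at a difference of at least 2-fold, and counts of members in the 5 comparisons are given beside the share of the 12239 kept genes that passed the same mark. Over the whole array the median intensity lay between 155 and 159 on the 4 arrays. For Gapdh, the 3' control probe set over the 5' one, a measure of RNA integrity and amplification, gave a ratio of 4.30 on the wild-type LSK array and between 2.60 and 2.95 on the other 3, and Actb gave 3.53 against 2.67 to 2.99. The wild-type LSK array stood apart in both ratios. It enters the genotype comparison in LSK cells, the wild-type comparison of LSK with MP cells and the difference between the genotype differences, whereas the genotype comparison in MP cells and the Fbw7-deficient comparison of LSK with MP cells do without it. The target gene itself, Fbxw7, read 1355 and 1103 in LSK and 691 and 958 in MP cells. It was lower in the deficient cells in LSK and higher in MP. The sources used here do not say where its probe set lies relative to the deleted part, so these values do not check the labels.

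The core of the ISRE was looked for in the promoters of the set, to show which members carry it. RefSeq windows of 300 bases, from 250 before to 50 after a transcription start (build GRCm38.p6), were at hand for 34 of the 45 genes. The core was searched as GAAANNGAAA on one strand or TTTCNNTTTC on the other, and a gene with several windows counted if any of them held it. It occurred in the windows of 13 of the 34 members (38.2%), of 1079 of 27025 genes in the promoter table (3.99%) and of 362 of the 9900 kept genes with a window (3.66%). The 13 were Ifih1, Ddx58, Eif2ak2, Oas1a, Oas3, Stat2, Trim30a, Ifit1, Ifit3, Rsad2, Bst2, Ifitm3 and Ifi203. A second motif, the GAS core bound by Stat dimers (TTCNNNGAA, the same on both strands), was in 10 of 34 members (29.4%), against 9.55% of the genes in the table and 8.22% of the kept genes. It overlapped an ISRE core in Bst2 and Ifitm3. In Oas1a and Bst2 a pair of ISRE cores overlapped each other by sharing a GAAA.

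The sequences below are shown for the 5 members that hold the ISRE core and were at least 2-fold apart in some comparison, followed by the pair of genes with the largest genotype differences, which do not hold it. Each runs 5' to 3' on the gene's own strand, and capitals mark the ISRE core. Ddx58 lies at chr4:40239776-40240075 (minus strand), Eif2ak2 at chr17:78882523-78882822 (minus), Ifit1 at chr19:34640639-34640938 (plus), Ifitm3 at chr7:141010695-141010994 (minus) and Rsad2 at chr12:26456403-26456702 (minus). Ifi202b lies at chr1:173982795-173983094 (minus) and Ifi44l at chr3:151762842-151763141 (minus). Each window covers the promoter and the first transcribed bases of the gene.
Ddx58: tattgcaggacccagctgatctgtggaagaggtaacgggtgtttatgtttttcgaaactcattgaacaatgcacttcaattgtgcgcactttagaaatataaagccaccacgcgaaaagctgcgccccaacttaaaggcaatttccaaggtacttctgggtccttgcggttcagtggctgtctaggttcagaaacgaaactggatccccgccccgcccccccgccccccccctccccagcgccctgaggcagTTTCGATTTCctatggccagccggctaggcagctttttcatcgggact
Eif2ak2: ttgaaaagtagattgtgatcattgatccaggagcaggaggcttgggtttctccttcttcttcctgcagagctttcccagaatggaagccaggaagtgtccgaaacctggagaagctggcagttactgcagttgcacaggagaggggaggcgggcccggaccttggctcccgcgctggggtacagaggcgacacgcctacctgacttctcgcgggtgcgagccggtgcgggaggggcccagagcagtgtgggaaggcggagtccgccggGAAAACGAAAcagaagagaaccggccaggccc
Ifit1: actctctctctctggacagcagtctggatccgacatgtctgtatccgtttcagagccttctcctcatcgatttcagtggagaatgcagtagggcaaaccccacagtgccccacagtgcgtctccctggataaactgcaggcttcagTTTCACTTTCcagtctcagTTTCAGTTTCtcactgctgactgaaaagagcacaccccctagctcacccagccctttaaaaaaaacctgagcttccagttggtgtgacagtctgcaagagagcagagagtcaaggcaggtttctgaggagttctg
Ifitm3: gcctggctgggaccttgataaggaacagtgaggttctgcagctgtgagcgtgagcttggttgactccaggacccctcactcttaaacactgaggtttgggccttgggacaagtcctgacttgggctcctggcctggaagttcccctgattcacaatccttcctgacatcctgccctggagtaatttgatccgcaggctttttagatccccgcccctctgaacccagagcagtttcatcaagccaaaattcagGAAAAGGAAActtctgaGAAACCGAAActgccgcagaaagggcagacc
Rsad2: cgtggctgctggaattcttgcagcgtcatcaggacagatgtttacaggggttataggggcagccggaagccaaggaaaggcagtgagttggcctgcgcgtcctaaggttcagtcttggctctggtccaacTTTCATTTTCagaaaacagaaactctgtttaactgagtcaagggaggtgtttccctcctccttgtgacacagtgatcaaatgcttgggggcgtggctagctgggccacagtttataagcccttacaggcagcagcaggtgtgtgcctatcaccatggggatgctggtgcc
Ifi202b: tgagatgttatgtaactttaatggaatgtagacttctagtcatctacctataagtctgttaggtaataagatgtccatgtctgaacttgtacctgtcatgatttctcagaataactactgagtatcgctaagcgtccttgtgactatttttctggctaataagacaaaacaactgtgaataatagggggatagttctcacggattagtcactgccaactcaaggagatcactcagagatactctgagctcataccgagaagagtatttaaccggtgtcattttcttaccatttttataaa
Ifi44l: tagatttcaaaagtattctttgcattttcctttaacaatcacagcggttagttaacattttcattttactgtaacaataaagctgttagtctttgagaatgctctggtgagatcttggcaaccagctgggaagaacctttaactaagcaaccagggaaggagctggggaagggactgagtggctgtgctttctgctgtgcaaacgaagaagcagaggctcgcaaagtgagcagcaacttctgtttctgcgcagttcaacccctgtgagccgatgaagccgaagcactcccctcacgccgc

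Ifit1 carries a pair of cores, which begin 104 and 85 bases before its start. Rsad2 carries 1 core, which begins 120 bases before the start. In Ddx58, Eif2ak2 and Ifitm3 the cores lie just after the start. The windows of Ifi202b and Ifi44l hold no such core, which says only that these letters are not in these 300 bases. Ifi202b holds a GAS core that begins 148 bases before its start. A match is a description of letters and does not show that a factor binds there.

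**Figure D1:**
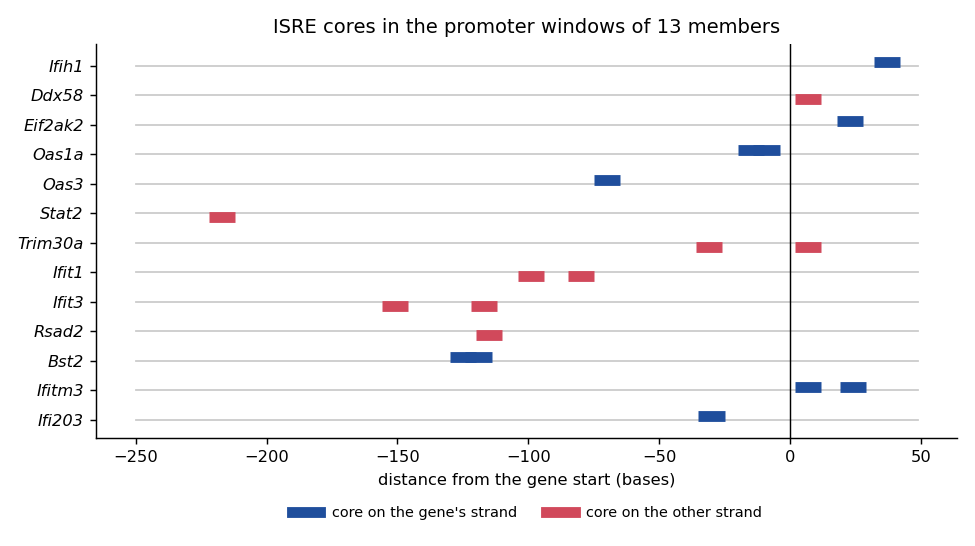
Positions of the ISRE core in the promoter windows of the 13 members that hold it, in bases from the gene start, with negative values before it. Each bar is 1 core, blue on the gene's strand and red on the other strand, and the grey line is the window. Cores lie on both sides of the start, from 222 bases before it in Stat2 to 41 after it in Ifih1.

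Members with and without the core had medians of LSK over MP that lay close to each other, and their counts past 2-fold were small. In wild-type cells the median difference of LSK over MP was 0.63 on the log2 scale for the 12 kept members with the ISRE core and 0.56 for the 21 without it, and 4 of 12 against 3 of 21 were at least 2-fold higher (5.05% of kept genes). In Fbw7-deficient cells these medians were 0.44 and 0.33, and 2 of 12 against 3 of 21 were at least 2-fold higher (3.86% of kept genes). Between genotypes the medians with and without the core were 0.14 and -0.01 in LSK and 0.20 and 0.29 in MP cells. The 2-fold counts include members that passed the filter only through the arrays where they are high. These are Ifit1 with the core, Oasl2 without it and, in Fbw7-deficient cells, Ifi44l without it. With low values raised to the filter, Ifit1 fell to log2 0.95 in wild-type and 0.41 in Fbw7-deficient cells. Eif2ak2, counted with the core in wild-type cells, had further probe sets at log2 -0.21 and 0.41. The differences between these groups were not tested. For all 362 kept genes with the core the medians of LSK over MP were 0.01 in wild-type and 0.05 in Fbw7-deficient cells. Of the 350 of these genes outside the set, 10.0% were at least 2-fold higher in LSK than MP in wild-type and 7.14% in Fbw7-deficient cells.

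Levels differed in how far they stood above the filter. Of the 42 kept members, 36 were at or above it on all 4 arrays, and Zbp1, Oasl2, Ifit1, Ifit3, Ifi202b and Ifi44l were under it on at least 1. The 3 members left out were Stat2, Mx1 and Ifi204, with highest intensities of 101, 88.4 and 74.6. Stat2 is a subunit of the factor that reads the ISRE, Mx1 a GTPase that blocks influenza virus and defective in many laboratory strains, and Ifi204 a DNA sensor. Just inside the filter were Ifit3 with a highest intensity of 157, Zbp1 with 186, Mx2 with 245 and Oas3 with 278. The filter is the median of all values and no background level was estimated, so a value under it is low but cannot be read as absence. The filter keeps a gene that is high on 1 array alone, and the medians over all 45 members, with no filter, are therefore given too. They were 0.04 and 0.28 for Fbw7-deficient against wild-type in LSK and MP cells, and 0.57 and 0.47 for LSK against MP in wild-type and Fbw7-deficient cells.

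**Figure D2:**
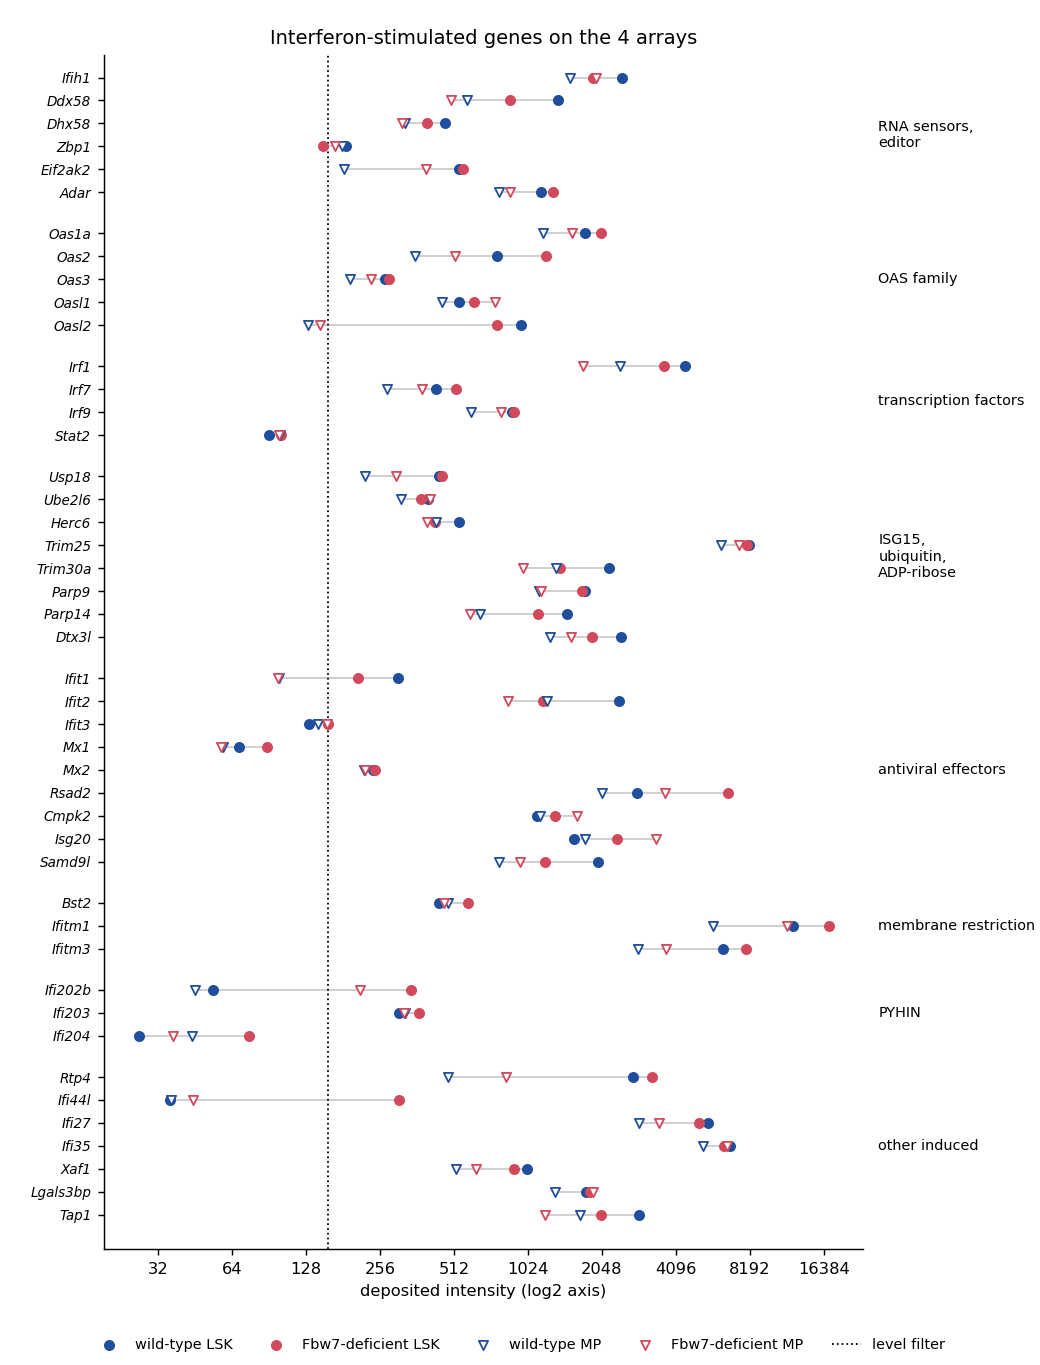
Deposited intensity, on a log2 axis, of the 45 members on the 4 arrays, grouped by role. Filled circles are LSK and open triangles MP arrays, blue wild-type and red Fbw7-deficient, and the dotted line is the level filter. Circles lie to the right of triangles for most members, and Oasl2, Ifit1, Ifi202b and Ifi44l span the filter.

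Most of the interferon-stimulated genes read higher in LSK than in MP cells, in both genotypes. In wild-type cells 36 of 42 were higher in LSK (48.0% of kept genes), with a median log2 difference of 0.60 against -0.02 over all kept genes. At least 2-fold higher were 11 of the 42, against 5.05% of kept genes, and 0 were at least 2-fold lower, against 2.4%. Centring the arrays on the median of the kept genes lowered this comparison by log2 0.11, to a median of 0.49, and left 8 members past 2-fold, with Oas2, Usp18 and Ifitm1 just short of it. In Fbw7-deficient cells 34 of 42 were higher in LSK (51.8% of kept genes), with a median of 0.47 against 0.01, and 7 were at least 2-fold higher (3.86% of kept genes) and 0 lower (1.63%). This second comparison does not use the wild-type LSK array. The 2 comparisons share no array, although both populations of a genotype come from the same mice. A difference above 0 in both was seen in 30 of 42 members and 36.1% of kept genes, and at least 2-fold in both in 5 of 42 members and 2.45% of kept genes. Oasl2 and Ifit1, counted in each of these 2-fold counts, passed the filter only through the LSK arrays. Ifi44l, counted in Fbw7-deficient cells, passed it only through the Fbw7-deficient LSK array. In bulk RNA a higher share of cells with the transcript and more transcript per cell cannot be told apart.

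Among the sensors, 6 of 6 kept genes were higher in LSK in wild-type cells (48.0% of all kept genes) and 4 of 6 in Fbw7-deficient cells (51.8%). Ddx58, the RIG-I helicase that binds short double-stranded RNA ends, read 1358 in wild-type LSK and 864 in Fbw7-deficient LSK, against 577 and 499 in the MP cells of these genotypes. Both LSK arrays were above both MP arrays, by 2.35-fold (log2 1.23) in wild-type and log2 0.79 in Fbw7-deficient cells. Eif2ak2, the PKR kinase that halts translation on double-stranded RNA, read 534 and 554 in LSK and 183 and 393 in MP cells. The wild-type MP array was the low one, so the difference was 2.91-fold in wild-type cells and log2 0.50 in Fbw7-deficient cells. Its further probe sets did not show this: LSK over MP in wild-type cells was log2 -0.21 and 0.41 in them. The other sensors, Ifih1, Dhx58, Zbp1 and the RNA editing enzyme Adar, differed by 0.05 to 0.70 in wild-type and -0.17 to 0.58 in Fbw7-deficient cells. In wild-type cells a further probe set of Zbp1 went the other way, at -0.33. Those that passed for Ddx58 (1.95) and Adar (0.11 and 0.74) did not.

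The Oas enzymes make the messenger that switches on RNase L. Of the family, 5 of 5 genes were higher in LSK in wild-type cells (48.0% of kept genes) and 4 of 5 in Fbw7-deficient cells (51.8%). Oasl2, a synthetase-like protein, read 956 in wild-type LSK and 768 in Fbw7-deficient LSK cells, and 130.5 and 146 in the MP cells of these genotypes. The LSK values were well above the filter and the MP values under it, a measured difference of 7.32-fold (log2 2.87) in wild-type and 5.26-fold (log2 2.39) in Fbw7-deficient cells. With values under the filter raised to it, the log2 differences were still 2.61 and 2.29. Oas2 read 762 and 1207 in LSK and 355 and 515 in MP cells. LSK was above MP by 2.14-fold in wild-type and 2.34-fold in Fbw7-deficient cells. Oasl1, a relative that restrains Irf7 translation, read 535 and 615 in LSK and 456 and 753 in MP cells. It was the gene of the family with its highest value in Fbw7-deficient MP cells.

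Of the transcription factors kept, Irf1, Irf7 and Irf9 were higher in LSK in both genotypes. Irf1, an early interferon target that also drives antigen presentation genes, read 4441 and 3649 in LSK and 2419 and 1719 in MP cells. The order ran from wild-type LSK down to Fbw7-deficient MP, and LSK was 2.12-fold above MP in Fbw7-deficient cells and log2 0.88 above it in wild-type cells. Irf7, the amplifier of interferon production, differed by log2 0.66 and 0.46, and Irf9, the DNA-binding subunit of the ISRE complex, by 0.56 and 0.18.

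Of the 8 genes of ISG15, ubiquitin and ADP-ribose transfer, 8 were higher in LSK in wild-type (48.0% of kept genes) and 7 in Fbw7-deficient cells (51.8%). Parp14, a mono-ADP-ribosyltransferase, read 1480.3 and 1129 in LSK and 651 and 595 in MP cells. The LSK arrays were above the MP arrays, by 2.27-fold in wild-type and log2 0.92 in Fbw7-deficient cells, although the mean over its probe sets gave 0.65 in wild-type cells. Usp18, the protease that removes ISG15 and damps receptor signalling, read 446 and 459 in LSK and 221 and 296 in MP cells. It was 2.01-fold higher in wild-type LSK, just past the mark, and log2 0.63 higher in Fbw7-deficient LSK cells. The partners Parp9 and Dtx3l, an ADP-ribosyltransferase and a ubiquitin ligase that work as a pair, were higher in wild-type LSK by log2 0.62 and 0.95. The other members, Ube2l6, Herc6, Trim25 and Trim30a, were higher there by 0.31 to 0.72. Further probe sets that passed the filter went the other way there for Herc6 (-0.04 and -0.13) and for 1 of Trim25 (-0.19). Those of Trim30a (0.30) and Dtx3l (0.51) and another of Trim25 (0.28) did not.

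The antiviral effectors were mixed, with 5 of 8 kept genes higher in LSK in wild-type (48.0% of all kept genes) and 6 of 8 in Fbw7-deficient cells (51.8%). Ifit1, which binds foreign RNA that lacks cap methylation, read 302 and 209 in LSK and 99.2 and 98.3 in MP cells. Both MP values lay under the filter, and the measured differences of 3.05-fold and 2.12-fold became log2 0.95 and 0.41, under the mark, when they were raised to it. Samd9l, an endosomal protein and growth suppressor of myeloid cells, read 1978 in wild-type LSK against 1201 in Fbw7-deficient LSK and 778 and 954 in MP cells. The wild-type LSK array was the high one, 2.54-fold above wild-type MP, while in Fbw7-deficient cells the difference was log2 0.33. Cmpk2, a mitochondrial nucleotide kinase encoded beside Rsad2, and the exonuclease Isg20 were lower in LSK than in MP cells in both genotypes, at log2 -0.04 and -0.29 for Cmpk2 and -0.15 and -0.52 for Isg20.

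Ifitm1 and Ifitm3 sit in membranes and block the entry of viruses. Ifitm3 read 6344 and 7913 in LSK and 2869 and 3717 in MP cells. LSK was above MP by 2.21-fold in wild-type and 2.13-fold in Fbw7-deficient cells. Ifitm1 read 12236 and 17159.7 in LSK and 5802 and 11608 in MP cells, 2.11-fold higher in LSK in wild-type and log2 0.56 higher in Fbw7-deficient cells. Bst2, the tether that holds budding virus at the cell surface, lay at log2 -0.13 and 0.32.

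Of the genes of mixed function, Rtp4, a chaperone of receptors, read 2740.2 in wild-type LSK and 3271 in Fbw7-deficient LSK cells, against 483 and 835 in the MP cells. Its LSK values were far above its MP values, 5.67-fold (log2 2.50) in wild-type and 3.92-fold (log2 1.97) in Fbw7-deficient cells, with every array above the filter. Its second probe set was under the filter on every array, and the mean of both gave log2 1.28 and 1.14. Tap1, which pumps peptides for class I presentation, was higher in LSK by log2 0.80 and 0.75. Ifi27 and Xaf1, a promoter of apoptosis, were higher by 0.94 and 0.97 in wild-type cells and by 0.54 and 0.52 in Fbw7-deficient cells. The 5 members at least 2-fold higher in LSK in both genotypes were thus Oasl2, Rtp4, Oas2, Ifitm3 and Ifit1. Each was from a different role except Oasl2 and Oas2 of the Oas family. Oasl2 and Ifit1 passed the filter only through the LSK arrays. With low values raised to the filter, Oasl2 stayed past 2-fold in both genotypes and Ifit1 in neither.

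**Figure D3:**
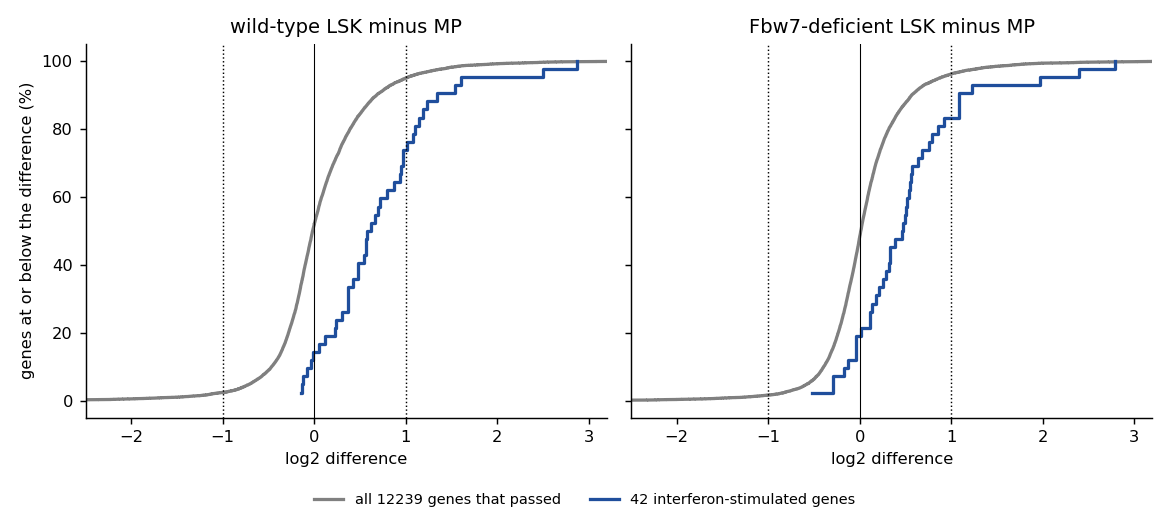
Cumulative share of genes, in percent, at or below each log2 difference of LSK over MP cells, in wild-type cells on the left and Fbw7-deficient cells on the right. The blue line is the 42 kept members, the grey line the 12239 kept genes, and dotted lines mark 2-fold. The blue line lies to the right of the grey line in both panels, with medians of 0.60 and 0.47 against -0.02 and 0.01.

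The array with a member's highest and lowest value gave the same pattern. The highest value fell on the wild-type LSK array for 19 of 42 members (34.0% of kept genes) and on the Fbw7-deficient LSK array for 18 (16.5%). It fell on the Fbw7-deficient MP array for 5 (31.1%), namely Oasl1, Ube2l6, Cmpk2, Isg20 and Lgals3bp, and on the wild-type MP array for 0 (18.4%). The lowest value fell on the wild-type MP array for 26 of 42 (17.3% of kept genes), on the Fbw7-deficient MP array for 9 (30.9%), on the wild-type LSK array for 6 (36.5%) and on the Fbw7-deficient LSK array for 1, Zbp1 (15.3%). Wild-type myeloid progenitors were thus the array where these genes were most often lowest.

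**Figure D4:**
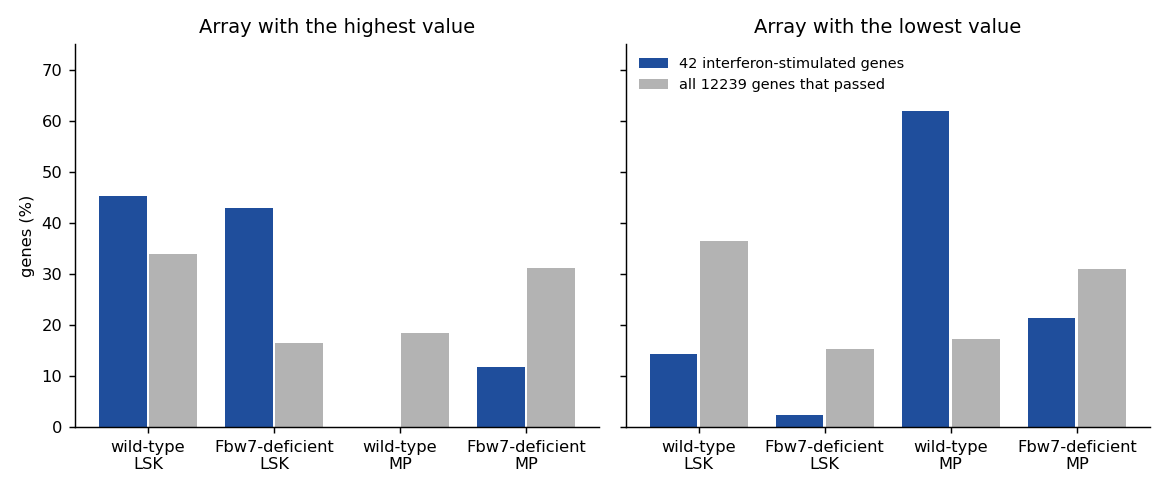
Share of genes whose highest, and whose lowest, value falls on each of the 4 arrays, in percent, for the 42 kept members beside the 12239 kept genes. The members exceed all kept genes most on the lowest values of the wild-type MP array, 26 of 42 against 17.3%.

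In LSK cells the loss of Fbw7 was not accompanied by a common shift of the set. Compared with wild-type LSK, 22 of 42 members were higher in Fbw7-deficient LSK cells (50.7% of kept genes), and the median difference was 0.03 against 0.00. Higher by at least 2-fold were 3 members, Ifi44l, Ifi202b and Rsad2, against 1.79% of kept genes, and 1, Ifit2, was lower by as much, against 1.95%. Ifi44l and Ifi202b passed the filter only through Fbw7-deficient arrays, so the same high values admitted them and made the call. With low values raised to the filter, Ifi44l fell to log2 0.96, short of the mark. By role, 2 of 6 sensors, 1 of 8 genes of ISG15, ubiquitin and ADP-ribose transfer, 4 of 5 Oas family genes and 3 of 3 membrane genes were higher. These stand beside the same 50.7%, and differences between roles were not tested. This comparison uses the wild-type LSK array with the high Gapdh and Actb ratios, and their part in it was not tested.

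Ifi44l, an interferon-induced protein of little known function, read 35.7 and 305 in LSK and 36.1 and 44.1 in MP cells. The Fbw7-deficient LSK array was the one above the filter, and the measured difference in LSK was 8.56-fold (log2 3.10). With the other 3 values raised to the filter, the difference was log2 0.96, just under 2-fold. A second probe set of Ifi44l gave 35.0, 216, 35.6 and 46.0 in the same order of arrays, and the third was under the filter on every array. Both upper probe sets placed the gene highest in Fbw7-deficient LSK cells.

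Ifi202b, a DNA-binding protein of the Ifi200 family whose level is known to vary between inbred strains, read 53.2 in wild-type LSK and 45.2 in wild-type MP cells, both under the filter. It read 340.2 in Fbw7-deficient LSK and 212 in Fbw7-deficient MP cells, so both Fbw7-deficient arrays were above both wild-type arrays. The measured difference was 6.40-fold (log2 2.68) in LSK and 4.68-fold (log2 2.23) in MP cells, and log2 1.12 and 0.43 with the low values raised to the filter. It was the 1 member at least 2-fold higher in Fbw7-deficient cells of both populations. It was read from a single probe set, of a class that can cross-hybridise, and without that class 2 members were at least 2-fold higher in each population in place of 3. Each genotype was 1 pool of mice, so a difference between the pools and a difference between the genotypes cannot be told apart.

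Rsad2 encodes viperin, an enzyme that makes a chain-terminating nucleotide and so stops viral RNA synthesis. It read 2853 and 6700.0 in LSK and 2046 and 3705 in MP cells. Both Fbw7-deficient arrays were above both wild-type arrays, by 2.35-fold (log2 1.23) in LSK and log2 0.86 in MP cells. Its further probe sets gave log2 1.38 and 1.36 in LSK and 1.18 and 0.26 in MP cells, the same direction in each. Cmpk2 and Isg20 were also higher in the Fbw7-deficient cells of both populations, Cmpk2 by log2 0.24 and 0.50. Isg20 read 1579 and 2365 in LSK and 1751 and 3388 in MP cells, a difference of log2 0.58 and 0.95, short of the mark.

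Ifit2, a relative of Ifit1 that binds AU-rich RNA, went the other way. It read 2399.7 and 1177 in LSK and 1229 and 847 in MP cells. The wild-type LSK array was high and the difference in LSK was 2.04-fold lower in Fbw7-deficient cells (log2 -1.03), which became log2 -0.98 when arrays were centred on the median of the kept genes. In MP cells Ifit2 was also lower (log2 -0.54). Trim30a, a ubiquitin ligase that restrains innate signalling, read 2178 and 1382 in LSK and 1326 and 976 in MP cells. It was lower in Fbw7-deficient cells of both populations, as were Irf1 and Tap1, at log2 -0.66 and -0.44 for Trim30a, -0.28 and -0.49 for Irf1, and -0.52 and -0.47 for Tap1.

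In MP cells more of the set was higher in the Fbw7-deficient than in the wild-type sample. The difference was above 0 in 30 of 42 members (49.6% of kept genes), with a median of 0.28 against 0.00 over all kept genes. At least 2-fold higher were 3 members, Ifi202b, Eif2ak2 and Ifitm1 (0.825% of kept genes), and 0 were at least 2-fold lower (1.49%). Ifi202b passed the filter only through the Fbw7-deficient arrays and fell to log2 0.43 with low values raised to it. The Oas family genes were higher in 5 of 5, the genes of mixed function in 6 of 7 and the antiviral effectors in 6 of 8. The sensors were split, with 3 of 6 higher. This comparison does not use the wild-type LSK array.

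Ifitm1 was 2.001-fold higher in Fbw7-deficient MP cells, at the mark itself and just short of it with the arrays centred, and log2 0.49 higher in LSK cells. Eif2ak2 was 2.15-fold higher in its brightest probe set, and its further probe sets gave log2 -0.02 and 0.21, so that the mean over them was 0.43. The difference of Eif2ak2 thus rested on 1 of 3 probe sets. Rtp4 was higher by log2 0.79 and Oasl1 by 0.72, and Oas2 by 0.54. Lgals3bp, a secreted glycoprotein, was higher by 0.52 and Irf7 by 0.48.

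**Figure D5:**
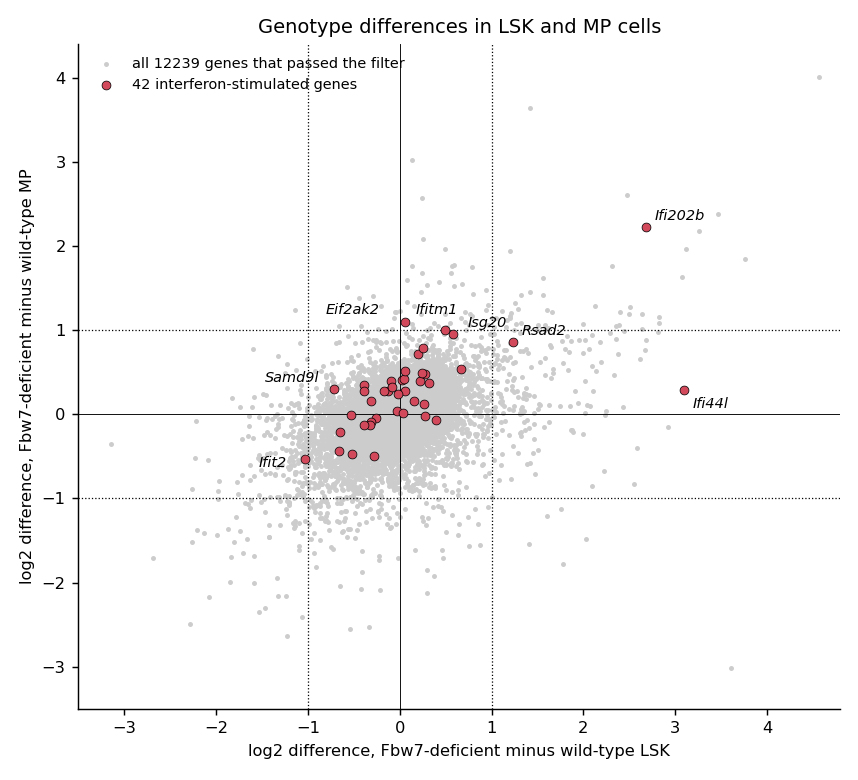
Log2 difference of Fbw7-deficient over wild-type cells in LSK (horizontal) and MP (vertical). Each red point is 1 of the 42 kept members, grey points are the 12239 kept genes, and dotted lines mark 2-fold. Red points lie on both sides of 0 in LSK cells and mostly above 0 in MP cells, with Ifi202b far out in both and Ifi44l in LSK.

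Set side by side, both genotype differences were above 0 in 20 of 42 members and both below 0 in 10. In 10 the difference was below 0 in LSK and above 0 in MP cells, and in 2, Bst2 and Ifi203, it was the other way. The difference in LSK minus that in MP cells was above 0 in 9 of 42 members (50% of kept genes), with a median of -0.25 against 0.00. It is the same quantity as the LSK over MP difference in Fbw7-deficient cells minus that in wild-type cells, so in 33 of 42 members the LSK over MP difference was lower in Fbw7-deficient than in wild-type cells. At least 2-fold above 0 was 1 member, Ifi44l (2.2% of kept genes), and at least 2-fold below 0 were 2, Eif2ak2 and Samd9l (1.32%). These 3 calls did not hold throughout: Ifi44l fell to log2 0.96 with low values raised to the filter, and with the arrays centred Eif2ak2 and Samd9l lay at -0.999 and -0.97, short of the mark. For Samd9l the genotype difference was log2 -0.72 in LSK and 0.29 in MP cells. Ifih1, the helicase that binds long double-stranded RNA such as polyI:C, lay at -0.39 and 0.35, and Dtx3l at -0.38 and 0.28. None of these differences between differences could be tested. They use the wild-type LSK array with its high Gapdh and Actb ratios, whose part in them was not tested.

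Other genes of the pathway were read from lists by role. Of 19 interferon ligand genes listed, 10 had a probe set and 3 of these passed, with 0 at least 2-fold apart in any comparison. Ifnb1, interferon beta, was under the filter on every array, at 76.6 to 90.0. Of 20 receptor and signalling genes, 19 were named and 19 passed. The receptor subunit Ifnar1 read 969.8 and 804 in LSK and 631 and 549.8 in MP cells, higher in LSK by log2 0.62 and 0.55. Its partner Ifnar2 differed by 0.16 and 0.34, the kinase Jak1 by 0.68 and 0.02, Tyk2 by -0.18 and -0.12, and the feedback inhibitor Socs1 by -0.25 and -0.03. The receptor and its kinases thus lay within 2-fold between the populations.

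Socs3, a cytokine signalling inhibitor induced mainly by other receptors, was the listed signalling gene with the largest such difference. It read 2362 and 2095 in LSK and 293 and 276 in MP cells, log2 3.01 and 2.92. Irf2, which competes with Irf1 for its sites and restrains interferon signalling in stem cells, was higher in wild-type LSK by log2 1.48 and in Fbw7-deficient LSK by 0.67. Irf8, a factor of monocyte and dendritic cell fate, read 4955 and 8366 in LSK and 9804 and 3318 in MP cells. It was lower in wild-type LSK than MP (log2 -0.98) and higher in Fbw7-deficient LSK than MP (log2 1.33). Of 15 genes of double-stranded RNA entry and Toll-like receptor signalling, 13 passed and 1, the RNA receptor Tlr7, was at least 2-fold apart, higher in Fbw7-deficient LSK than MP by log2 1.15 (3.86% of kept genes).

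A list of 56 further interferon-stimulated genes outside the set had 47 named and 44 passed. In wild-type cells 12 of the 44 were at least 2-fold higher in LSK than MP (5.05% of kept genes) and 1 lower (2.4%). In Fbw7-deficient cells 7 were higher (3.86%) and 0 lower (1.63%), and the medians were 0.34 and 0.42. Parp12 differed by log2 1.90 and 1.90, Phf11d by 2.11 and 1.47, Epsti1 by 1.46 and 1.91, Tnfsf10, the death ligand TRAIL, by 1.82 and 1.33, and the transcription factor Stat4 by 1.59 and 1.37. Of 14 class I presentation genes listed, 11 passed, and 10 of them in wild-type cells and 11 in Fbw7-deficient cells were higher in LSK (48.0% and 51.8% of kept genes), with medians of 0.20 and 0.43. Nlrc5, the activator of class I genes, was higher by 1.59 and 1.23.

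Between genotypes the medians of these lists were below 0. In MP cells the 44 further genes had a median of -0.14 with 18 above 0, and the 11 class I genes a median of -0.48 with 0 above 0, beside 0.28 and 30 of 42 for the set and 49.6% of kept genes above 0. In LSK cells the medians were -0.24 and -0.23. In Fbw7-deficient LSK cells 4 of the 44 were lower by at least 2-fold (1.95% of kept genes), Casp12 (log2 -1.41), Stat4 (-1.04), Cd274, the checkpoint ligand PD-L1 (-1.03), and Tnfsf10 (-1.01). Higher by as much were 2 (1.79%), the Schlafen genes Slfn1 (1.46) and Slfn2 (1.23), Slfn2 being a keeper of T cell quiescence. The lists were made by name from the same pathway and were not tested against each other.

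Markers of the cells in the gates moved between the arrays as well. The summed intensity of 6 named stem cell markers was 18702 and 9799.7 in LSK and 7817 and 5200.2 in MP cells, so both LSK samples were above the MP samples. That of 4 named erythroid markers was 2464, 15930.4, 9027 and 23316 in the same order. Neutrophil markers, 10 in all, summed to 108931, 207429, 208030 and 219185. Of these, 6 were at least 2-fold higher in Fbw7-deficient than in wild-type LSK cells, as were 4 of the 4 erythroid markers (1.79% of kept genes). The 6 megakaryocyte markers summed to 15634, 5829.97, 10548 and 5964. Lower by at least 2-fold in the Fbw7-deficient LSK sample were 3 of them and 4 of the 6 stem cell markers (1.95% of kept genes).

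The 11 monocyte and macrophage markers summed to 10831, 22415, 24485 and 12036, of which Irf8 itself was a large part. In MP cells this sum was lower in the Fbw7-deficient sample, and the median difference of the 11 markers was log2 -0.43. Csf1r, Ccr2, Ly86, Irf8, Clec7a, Cd68 and Adgre1 were lower there, at log2 -1.56 to -0.40. The remaining markers Mrc1, Vcam1, C1qa and C1qb were higher by log2 0.82, 0.81, 0.50 and 1.20. Plasmacytoid dendritic cells, the main makers of interferon in blood and marrow, had 8 markers, the member Bst2 among them, with sums of 5182, 4388, 3187 and 2943. These sums were carried by Tcf4, at 3345, 2139, 1046 and 661, and 5 of the 8 were lower in wild-type LSK than MP, with a median of -0.09. Their defining marker Siglech was under the filter on every array, at 90.0 to 107, and Ccr9 and Pacsin1 were under it too. The 8 dendritic markers summed to 10284, 6555, 4681 and 2182, of which Flt3 gave 6679, 4433, 1229 and 521, and their median difference of wild-type LSK over MP was 0.03. The part of these cell types in the differences above was not tested.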

How the data were processed

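RNA of each group was put on 1 Affymetrix array of 45101 probe sets, as biotin-labelled cRNA from 20 ng of total RNA amplified in 2 cycles, per the labels' protocols. The deposited value of a probe set is a linear intensity. It came from RMA, per the submitters' processing notes, whose version the sources used here do not give. The method equalises the distributions of arrays, so a level was compared between arrays and not between probe sets, and shifts shared by most genes are not seen. Of the probe sets, 34945 name 1 gene and were used, 932 name several and 9224 none. Symbols of 34741 were updated by gene ID through RefSeq (GRCm38.p6). Differences are of log2 values (Python 3.11.15, pandas 2.3.3, numpy 2.4.6), and the procedure was tested on simulated data. Samples were grouped by their titles.

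The members and lists were chosen with earlier results of these data known. Values on all 4 arrays are given for members at least 2-fold apart in some comparison and, in each role, for the member with the largest difference in each genotype comparison. Of other pathway genes, those at least 2-fold apart and a few fixed names may be named; Isg15 is not analysed here because no probe set used names it alone. Ifnb1 and the cell markers printed singly were named after their values were seen. Alternatives were the mean over probe sets, probe sets of possible cross-hybridisation left out, no or a stricter level filter, arrays centred on their median, low values raised to the filter, a fold of 1.5 and a shorter promoter window.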

Additional observations from a re-analysis of the deposited data

Results flagged for a closer look

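For Samd9l, a member, the genotype difference had opposite signs in LSK and MP cells and the 2 differed by log2 -1.01. Among the other pathway genes the same held for Ifngr2, a subunit of the type II interferon receptor, with 1.01, for the lymphoid factor Irf4 with 1.15, for Irf8 with 2.32, for the helicase Helz2 with -1.002 and for Ifi209, an Ifi200 family gene listed as Pyhin1, with 2.30. With 1 array per group none of these 6 differences was tested. Irf4 read 139 and 176 in wild-type and Fbw7-deficient LSK and 216 and 123 in MP cells. It was thus under the filter in wild-type LSK and Fbw7-deficient MP cells, and its difference was not recomputed with low values raised. Irf8 is also 1 of the 11 monocyte and macrophage markers. Their sums, which include it, were 10831 and 22415 in wild-type and Fbw7-deficient LSK and 24485 and 12036 in MP cells.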

How the results depend on the processing

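No paired analysis was possible because each group has 1 array and the groups share a single replicate number. Of 158 recomputed member calls, 141 kept their side of 2-fold, 17 did not and 0 turned their direction. The values of called members stayed the same with no level filter (28 calls), a stricter one (23) and possibly cross-hybridising probe sets left out (26). These calls could not change. Those not kept were 4 with the mean of probe sets (21 kept), 7 with arrays centred (21) and 6 with low values raised (22). Calls of members that a setting removed are not in the 158. These were Ifi44l (mean, stricter filter), Ifit1 (stricter filter) and Ifi202b (those probe sets left out). The medians of the kept members ranged over the alternatives from 0.00 to 0.08 for the genotype difference in LSK, 0.28 to 0.31 in MP, 0.49 to 0.68 for LSK over MP in wild-type and 0.34 to 0.48 in Fbw7-deficient cells, and -0.32 to -0.21 for the difference of the genotype differences. With arrays centred, 0 members were lower by at least 2-fold in Fbw7-deficient LSK cells and 0 had a difference of differences at least 2-fold below 0. With the mean of probe sets, 1 was at least 2-fold below 0 there. At least 2-fold above 0 were 0 with that mean, 2 with no level filter, 0 with a stricter filter and 0 with low values raised. At 1.5-fold, 8 members were past the mark in the LSK genotype comparison, 4 higher (4.5% of kept genes) and 4 lower (7.08%), and 7 in the MP one, 7 higher (2.97%) and 0 lower (5.26%). For LSK over MP they numbered 21 in wild-type cells, each higher (12.7%; lower 6.91%), and 13 in Fbw7-deficient cells, each higher (9.62%; lower 4.74%). For the difference of differences they numbered 5, with 1 above 0 (5.68%) and 4 below (5.47%). A shorter promoter window held the ISRE core in 35.3% of members, against 2.39% of the genes in the promoter table and 2.21% of the kept genes. Low signal limits Ifi202b, Ifi44l, Ifit1, Oasl2, Zbp1 and Ifit3, which are under the filter on some arrays. The same holds for the pathway genes Irf2, Irf4, Tlr7, Casp12 and Slfn1, whose differences were not recomputed with low values raised.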

Other observations

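Genes of the type II interferon pathway differed between the populations as well. Ifngr1, the ligand-binding subunit of the interferon gamma receptor, read 1861 and 2153 in wild-type and Fbw7-deficient LSK and 4637 and 3760.2 in MP cells, so MP was the higher population in both genotypes. The log2 difference of LSK over MP was -1.32 in wild-type and -0.80 in Fbw7-deficient cells, opposite in direction to that of Ifnar1. Ifngr2, its signalling partner, read 707 and 1149 in wild-type and Fbw7-deficient LSK and 519 and 418 in MP cells, and was higher in LSK by log2 0.45 and 1.46. Ifi209 read 829 and 1074 in LSK and 2152 and 566 in MP cells of wild-type and Fbw7-deficient mice, the listed gene with the lowest genotype difference in MP cells, at log2 -1.93. No test of these values was possible with 1 array per group.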
